A study of Mus musculus with 6 samples.

Results

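The genes described here are 10 regulators of the G1 phase of the cell cycle, chosen by name around the cyclin gene Ccnd1: the D-type cyclin genes Ccnd1, Ccnd2 and Ccnd3, the E-type cyclin genes Ccne1 and Ccne2, the kinase genes Cdk4 and Cdk6, the inhibitor genes Cdkn1b and Cdkn2c, and Rb1. All 10 had a row among the 24010 named genes of the array table. The samples were dorsal pancreatic buds of mouse embryos at E11.5, kept in culture for 24 h, each a pool of 10 buds on 1 array. The 6 arrays make 3 groups of 2, which received 0.1% DMSO (the control), I-BET151 at 500 nM or JQ1 at 100 nM. Both compounds occupy the bromodomains of the BET proteins, which read acetylated histones and help RNA polymerase to elongate. Strain and genotype of the embryos are not given in the labels, nor whether replicate pools were from different litters or days. The p-values therefore cover the variation among these pools alone, some of which may be technical. The 2 inhibitor groups were compared with the same control arrays and were given at different doses.

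D-type cyclins are made in response to growth signals and activate Cdk4 and Cdk6, which phosphorylate the retinoblastoma protein Rb1. Phosphorylated Rb1 releases E2F transcription factors, which switch on E-type cyclins and the genes of DNA replication, and cyclin E with Cdk2 completes the step into S phase. Inhibitors of the INK4 class, such as the product of Cdkn2c (p18), block Cdk4 and Cdk6, and the product of Cdkn1b (p27) blocks cyclin E with Cdk2. In the pancreas, Ccnd2 and Cdk4 are best known for the growth of the beta cell population after birth, and Cdkn1b for holding differentiated endocrine cells out of the cycle.

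Among the 10 genes, Ccnd1 fell under each inhibitor, Rb1 rose in the mean of both inhibitors, and no other member passed the test. A gene was called at a limma p under 0.05 after Benjamini-Hochberg adjustment over all 24010 genes. Under I-BET151 this named 1 member of 10, where 1.13% of all genes were called (0.262% rose and 0.87% fell). Under JQ1 it named 1 of 10, against 3.8% of all genes (1.13% rose and 2.67% fell). In the mean of both inhibitors it named 2 of 10, against 4.92% (1.59% rose and 3.33% fell). In counts, 63 genes rose and 209 fell under I-BET151 and 272 and 640 under JQ1, which became 183 and 350, and 664 and 727, after every array was centred. At an unadjusted p under 0.05 there were 3 members under I-BET151 (Ccnd1, Ccne1 and Rb1), 3 under JQ1 (Ccnd1, Cdk6 and Rb1) and 4 in the mean of both, against 18.9%, 21.6% and 22.7% of all genes. The median log2 change of the members was -0.07 under I-BET151 and -0.05 under JQ1, and that of all genes was 0.00 and 0.02. Members with a negative change numbered 7 of 10 under each inhibitor, against 46.0% and 44.1% of all genes. After centring they numbered 5 of 10 under each, against 36.5% and 32.4%. The members' medians were then -0.02 and 0.01 against 0.05 and 0.08 over all genes. Centring shifts every gene by the same amount, so it cannot alter the gap between these medians.

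**Figure D1:**
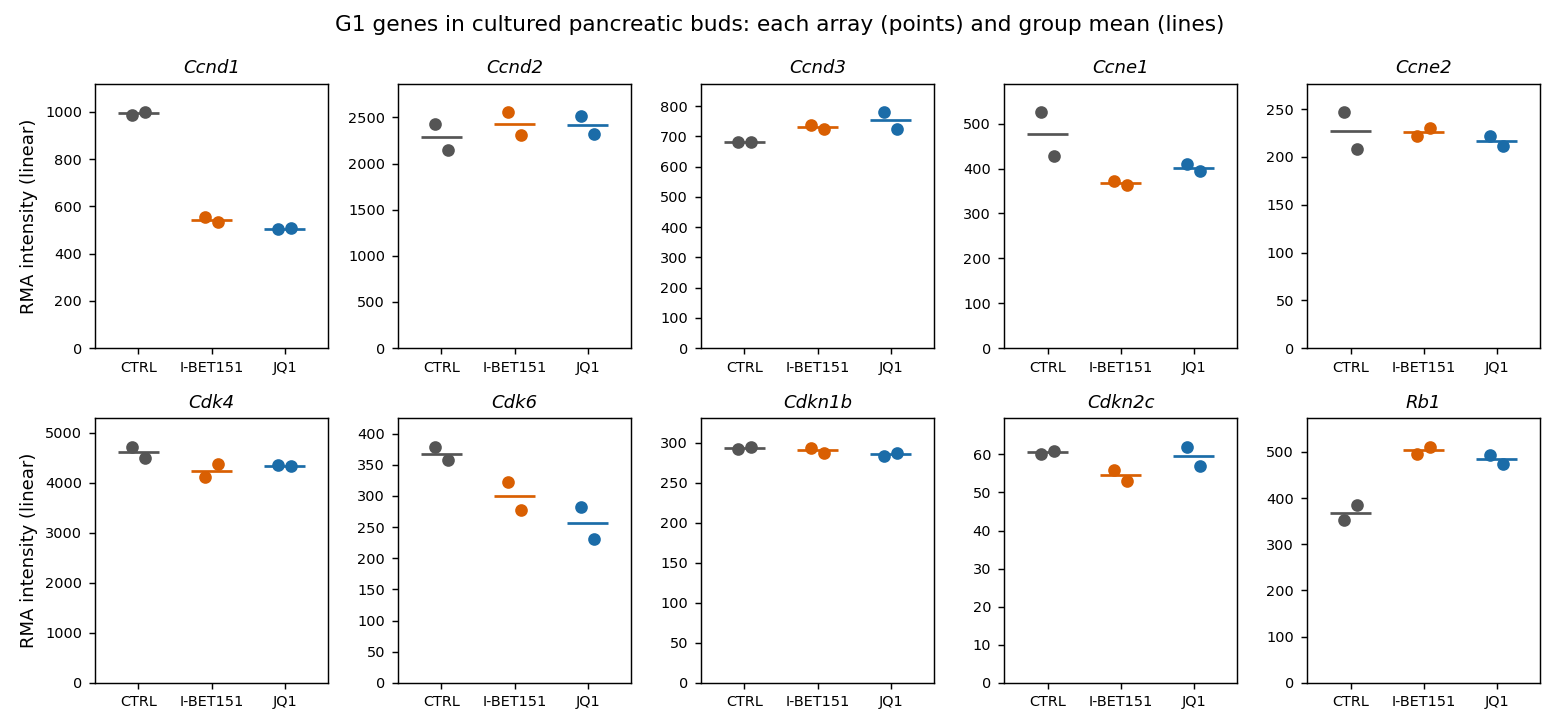
RMA intensity on a linear scale (vertical axis, from 0) of each of the 10 genes on every array, by group (horizontal axis). Points are arrays and lines are means of 2 arrays. The 4 treated arrays of Ccnd1 lie between 504 and 555 against 987 and 999 in the controls, and those of Rb1 lie between 473 and 511 against 352 and 384.

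Ccnd1, which encodes cyclin D1, read 987 and 999 with DMSO, 555 and 533 with I-BET151, and 504 and 507 with JQ1. The groups did not overlap, and the gap between control and treated arrays was far wider than the spread within any group. Under I-BET151 the fall was 1.83-fold (log2 change -0.87 ± 0.06 SE, 95% interval -1.01 to -0.72, limma adjusted p = 0.0306). Under JQ1 it was 1.96-fold (log2 change -0.97 ± 0.06 SE, 95% interval -1.12 to -0.83, limma adjusted p = 0.0112). Ordered by log2 change, it was the 197th largest fall of 24010 genes under I-BET151 and the 234th under JQ1. When any 1 of the 6 arrays was left out, whichever of the 2 CTRL, 2 I-BET151 or 2 JQ1 arrays it was, the log2 changes stayed at -0.90 to -0.84 and -0.98 to -0.97, while the adjusted p rose to 0.149 to 0.245 and 0.0724 to 0.160. When genes dimmer than the median were dropped as well, it was 0.00729 to 0.0252 and 0.00198 to 0.00832 in the same 6 fits. Fits of only the 2 groups compared are the same fits as those without 1 array of the third group, and lost the call (limma adjusted p = 0.149 and 0.0724). The call was also lost with the replicate number as a block (0.130 and 0.0612).

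Ccnd2 and Ccnd3, the paralogues of Ccnd1, were not called. Ccnd2 read 2429 and 2142 with DMSO, 2559 and 2309 with I-BET151, and 2513 and 2322 with JQ1. Its 3 groups overlapped, and the 95% interval of its log2 change was -0.17 to 0.35 under I-BET151 and -0.18 to 0.34 under JQ1. Ccnd3 read 682 and 683 with DMSO, 737 and 725 with I-BET151, and 781 and 726 with JQ1. All 4 treated arrays were above both controls, by small amounts, with log2 changes of 0.10 ± 0.06 and 0.14 ± 0.06 (SE, limma adjusted p = 0.475 and 0.287).

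The change of Ccnd1 relative to its paralogues was taken as a ratio within each array. The log2 ratio of Ccnd1 to Ccnd2 was -1.30 and -1.10 with DMSO, -2.21 and -2.12 with I-BET151, and -2.32 and -2.20 with JQ1. The treated arrays all lay below both controls, while the inhibitor groups overlapped with each other, and the mean changed by -1.01 on the 4 treated arrays (SD 0.14 among 2 controls and 0.08 among 4 treated arrays). For Ccnd1 to Ccnd3 the change was -1.04. Each had an exact two-sided permutation p of 0.0667, the smallest that 15 placements of the arrays allow, and 0.133 after adjustment over the 4 pairs of paralogues compared. This test of 2 against 4 arrays therefore cannot reach 0.05. The ratio describes an unequal change within the D-type cyclin genes; levels of different genes on an array are not comparable with one another.

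**Figure D2:**
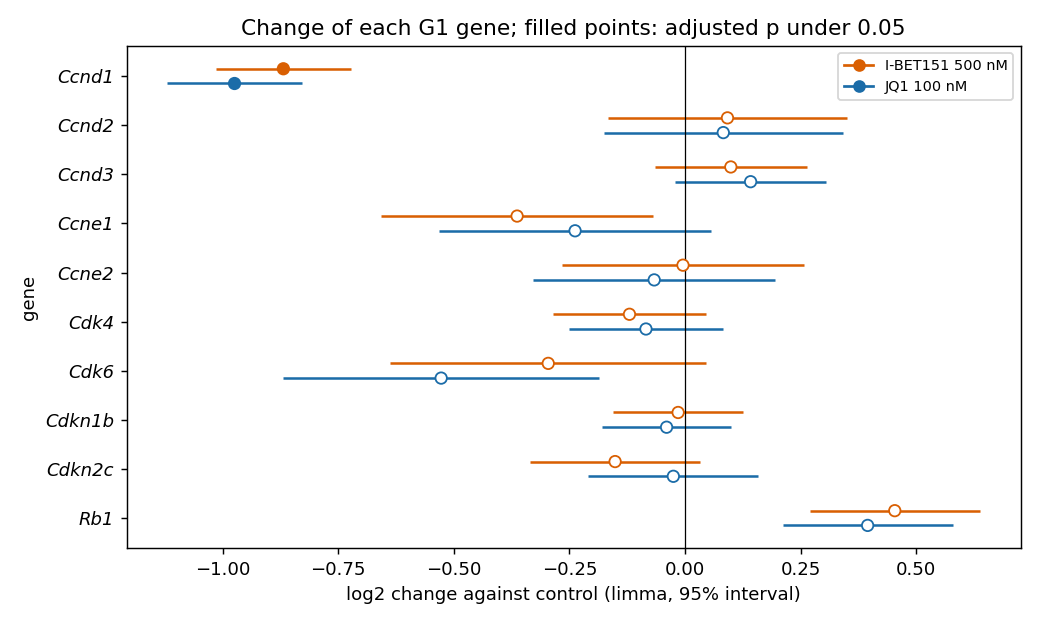
Log2 change against control (horizontal axis) of each of the 10 genes (vertical axis) under I-BET151 and JQ1, with 95% intervals from the limma fit; filled points have an adjusted p under 0.05. The intervals of Ccnd1 lie wholly below those of Ccnd2 and Ccnd3, and the Rb1 intervals lie above 0 although neither point is filled.

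The E-type cyclin genes are targets of E2F and act after the D-type cyclins. Ccne1 read 526 and 427 with DMSO, 373 and 364 with I-BET151, and 410 and 394 with JQ1. All treated arrays were below both controls, and the controls themselves differed more than any treated pair. Its log2 change was -0.36 ± 0.11 and -0.24 ± 0.11 (SE, limma adjusted p = 0.197 and 0.319), so it was not called. Ccne2 read 247 and 208 with DMSO, 222 and 230 with I-BET151, and 222 and 211 with JQ1, with every treated array between the controls. The exact permutation p for the ratio of Ccne1 to Ccne2, which was lower on treated arrays with a log2 change of -0.26, was 0.133 (0.178 adjusted over the 4 pairs).

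Cdk4 and Cdk6 encode the kinases that the D-type cyclins activate. Cdk4 read 4722 and 4497 with DMSO, 4112 and 4372 with I-BET151, and 4347 and 4345 with JQ1. The treated arrays were all lower, by a log2 change of -0.12 ± 0.06 and -0.08 ± 0.06 (SE, limma adjusted p = 0.403 and 0.532). The 95% intervals reached -0.29 and -0.25 at their lower ends. Cdk6 read 379 and 357 with DMSO, 323 and 278 with I-BET151, and 282 and 231 with JQ1. Again no treated array overlapped with the controls, and replicates of the treated groups lay well apart. The log2 change of Cdk6 was -0.30 ± 0.13 under I-BET151 (limma adjusted p = 0.321) and -0.53 ± 0.13 under JQ1 (SE, adjusted p = 0.108), and it was not called. When genes dimmer than the median were dropped, Cdk6 passed under JQ1 (adjusted p = 0.0246).

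RefSeq promoter windows were at hand for 6 of the 10 genes, on GRCm38.p6, each running from 250 bases before the start to 50 bases after it. Ccnd1, Ccnd2, Ccne2 and Rb1 were not among them. The 250 bases before the start of both kinase genes are shown to mark the E-box CACGTG, which the factor Myc binds. Cdk4 is a textbook target of Myc but was not called here. Myc fell in the mean of both inhibitors and, without centring, missed the threshold under I-BET151 and JQ1 alone (limma adjusted p = 0.06 and 0.0539). Any link between Myc and the values of Cdk4 or Cdk6 was not tested. Capitals mark each E-box, and the strand is that of the gene, 5′ to 3′. The Cdk4 stretch is chr10:127063285-127063534 (+) and the Cdk6 stretch is chr5:3343643-3343892 (+).
Cdk4: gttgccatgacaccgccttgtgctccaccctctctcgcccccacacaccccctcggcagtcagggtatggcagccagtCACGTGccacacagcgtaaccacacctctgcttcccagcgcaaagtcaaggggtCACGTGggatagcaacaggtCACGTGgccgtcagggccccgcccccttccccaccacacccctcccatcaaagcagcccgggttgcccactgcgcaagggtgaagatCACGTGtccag
Cdk6: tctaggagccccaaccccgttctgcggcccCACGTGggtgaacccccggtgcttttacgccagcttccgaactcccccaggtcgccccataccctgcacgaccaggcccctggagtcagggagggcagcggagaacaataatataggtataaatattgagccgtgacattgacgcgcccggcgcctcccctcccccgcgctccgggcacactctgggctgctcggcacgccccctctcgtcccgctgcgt

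The Cdk4 stretch holds 4 E-boxes, which begin 172, 118, 98 and 11 bases before the start, and the Cdk6 stretch holds 1, at 220 bases. The only other E-box in the 8 windows of the 6 genes was 34 bases after the start in 1 of the 2 windows of Cdkn2c, so 3 of 8 windows held one. The E-box reads the same on both strands. Of 32851 windows of 300 bases in the table, 7.15% held at least 1 E-box and 8 windows (0.0244%) held 4 or more. The E2F words TTTGGCGC, TTTCCCGC, TTTGCCGC and TTTCGCGC, searched on both strands, were in none of the 8 windows of the 6 genes and in 2.26% of all windows. The GC box GGGCGG, on either strand, was in 6 of the 8 windows and in 35.7% of all windows. The member windows had a GC content of 44.0% to 76.0%, where the median of all windows was 52.7%. These matches describe letters in the windows only.

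Cdkn1b and Cdkn2c encode inhibitors of the G1 kinases. Cdkn1b read 292 and 295 with DMSO, 294 and 287 with I-BET151, and 284 and 287 with JQ1. All 6 arrays lay between 284 and 295, the narrowest relative range of the 10 genes. Its 95% interval was -0.16 to 0.13 under I-BET151 and -0.18 to 0.10 under JQ1 on the log2 scale. Cdkn2c was dim, at 60 and 61 with DMSO, 56 and 53 with I-BET151, and 62 and 57 with JQ1, close to the array medians of 54 to 57. Its log2 changes were -0.15 ± 0.07 and -0.03 ± 0.07 (SE, limma adjusted p = 0.345 and 0.883), and rounding to whole numbers matters most at such values.

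Rb1, the pocket protein that restrains E2F until it is phosphorylated, read 352 and 384 with DMSO, 496 and 511 with I-BET151, and 494 and 473 with JQ1. All 4 treated arrays were above both controls. In the mean of both inhibitors Rb1 rose 1.34-fold (log2 change 0.42 ± 0.06 SE, 95% interval 0.26 to 0.58, limma adjusted p = 0.0364). Under each inhibitor alone the log2 change was 0.45 ± 0.07 and 0.39 ± 0.07 (SE), and the adjusted p of 0.0723 and 0.0587 missed the threshold. With arrays centred, which raised the median change of all genes to 0.05 and 0.08, it passed under both (0.0486 and 0.0398). Without any 1 of the 6 arrays the change in the mean of both stayed at 0.36 to 0.49, with an adjusted p of 0.105 to 0.166. When genes dimmer than the median were dropped as well, Rb1 passed in 5 of those 6 fits, and without CTRL 1 its adjusted p was 0.0562.

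**Figure D3:**
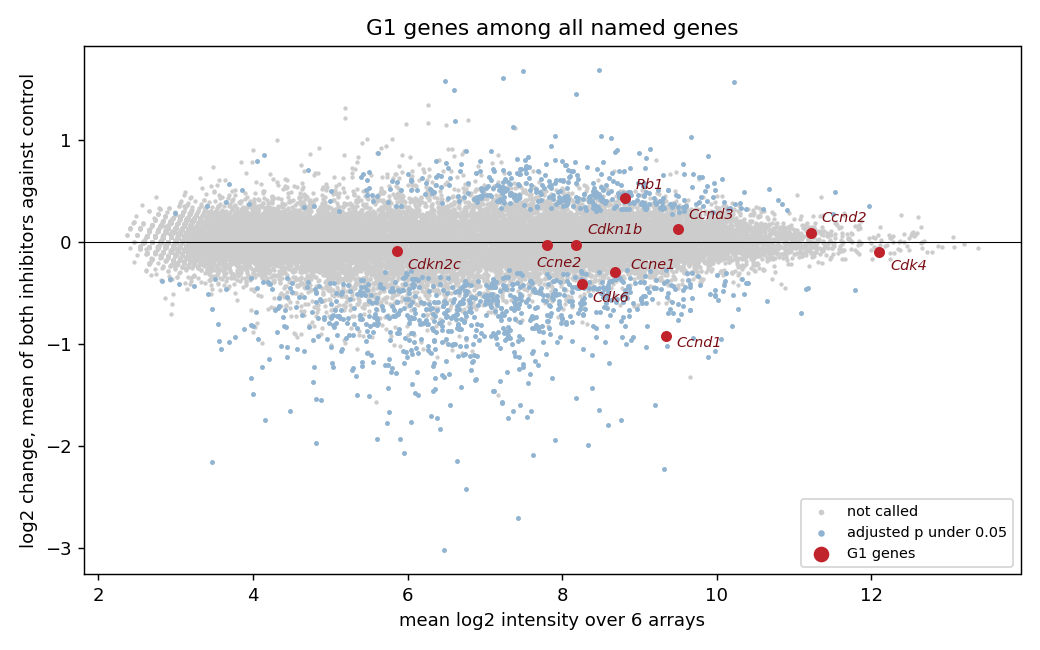
Log2 change in the mean of both inhibitors against control (vertical axis) by mean log2 intensity over 6 arrays (horizontal axis) for 24010 named genes, with the 10 G1 genes in red. Ccnd1 at -0.92 and Rb1 at 0.42 lie away from the bulk of the genes, and the other 8 lie between -0.41 and 0.12.

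Between the compounds, no member was called and no member had an unadjusted p under 0.05 in limma's fit of JQ1 against I-BET151. Over all genes 0 were called, 6.71% had an unadjusted p under 0.05, and 6 were called when the prior followed intensity and was made robust. The doses differed 500 nM to 100 nM, so these values stand side by side and do not compare the compounds at a matched dose. The 95% interval of the log2 difference, JQ1 minus I-BET151, was -0.25 to 0.04 for Ccnd1, -0.24 to 0.13 for Rb1 and -0.57 to 0.11 for Cdk6. The last interval leaves room for a sizeable difference. Arrays of the inhibitors did not overlap for 4 of the 10 members (Ccnd1 and Rb1 lower and Ccne1 and Cdkn2c higher under JQ1), against 28.5% of all genes. Against control, arrays did not overlap for 7 of 10 members under each inhibitor, where 42.1% and 44.9% of all genes had arrays placed so.

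The genes around the members were read from 8 lists chosen by role, with earlier results of these data known. The lists overlap: Cdk2, Cdk7, Ccnh and Ccna2 each stand in more than 1 of them, so they enter more than 1 count. Of 6 other CDK inhibitor genes, 1 fell under each inhibitor, where 0.87% and 2.67% of all genes fell. At an unadjusted p under 0.05 there were 2 and 3 of the 6, against 18.9% and 21.6% of all genes. The gene that fell was Cdkn1a, which encodes p21, a target of p53. It read 1115 and 1070 with DMSO, 661 and 733 with I-BET151, and 683 and 680 with JQ1. Its log2 change was -0.65 ± 0.07 and -0.68 ± 0.07 (SE, limma adjusted p = 0.046 and 0.0241), with no overlap between control and treated arrays. Cdkn3, a phosphatase that acts on CDKs, had log2 changes of -0.38 and -0.30 and was not called (adjusted p = 0.158 and 0.184).

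Of 19 genes of pocket proteins, E2F factors and the DREAM complex, 0 were called under I-BET151 and 1 rose under JQ1. Over all genes, 1.13% were called under I-BET151, and 1.13% rose under JQ1. E2f5, an E2F that represses together with pocket proteins, read 461 and 474 with DMSO, 578 and 608 with I-BET151, and 629 and 604 with JQ1 (log2 change 0.34 ± 0.06 and 0.40 ± 0.06 SE, limma adjusted p = 0.0904 and 0.0466). Its treated arrays were all above the controls, as those of Rb1 were. Lin9, a core DREAM subunit, had log2 changes of -0.26 and -0.44 (adjusted p = 0.204 and 0.0666). At an unadjusted p under 0.05 there were 5 and 6 of the 19, against 18.9% and 21.6% of all genes. The list median was -0.03 and -0.05, against 0.00 and 0.02 over all genes. After centring, which shifts every gene by the same amount, it was 0.02 under both, against 0.05 and 0.08. The gap to all genes is therefore unchanged by construction.

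Of 10 genes that activate, assist or (Wee1 and Pkmyt1) inhibit CDKs, none was called by limma under either inhibitor or in the mean of both. Cdk7 and Ccnh, which form the kinase that activates CDKs, had log2 changes of -0.16 and 0.21 in the mean of both (adjusted p = 0.141 and 0.273). Cdk7 alone of the 10 had an unadjusted p under 0.05, in each of the 3 comparisons, against 18.9%, 21.6% and 22.7% of all genes. Of 21 genes for the turnover of G1 proteins, limma called 0 under I-BET151 and 1, which rose, under JQ1. Over all genes 1.13% were called under I-BET151, and 1.13% rose under JQ1. At an unadjusted p under 0.05 there were 4 and 6 of the 21, against 18.9% and 21.6% of all genes. Fbxo31, an F-box protein gene whose product targets cyclin D1 for degradation, read 192 and 204 with DMSO, 227 and 242 with I-BET151, and 263 and 270 with JQ1 (log2 change 0.24 ± 0.07 and 0.43 ± 0.07 SE, limma adjusted p = 0.167 and 0.0477). The 3 groups did not overlap with one another. Ambra1, a ligase receptor for D-type cyclins, read 500 and 535 in control buds and 622 to 637 on treated arrays, and was not called (log2 change of 0.28 in the mean of both, limma adjusted p = 0.0621). With arrays centred, which raised the median change of all genes to 0.08, the adjusted p of Ambra1 was 0.0455.

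Of 29 E2F target and replication genes measured (30 were listed), none was called by limma under I-BET151 or JQ1. In the mean of both, Mcm3 fell. Over all genes, 1.13% were called under I-BET151 and 3.8% under JQ1, and 3.33% fell in the mean of both, close to 1 of 29. At an unadjusted p under 0.05 there were 11 and 12 of the 29, against 18.9% and 21.6% of all genes. The list median was -0.18 under I-BET151 and -0.16 under JQ1, against 0.00 and 0.02 over all genes. After centring it was -0.13 and -0.10 against 0.05 and 0.08, gaps that centring leaves unchanged by construction. Negative changes were measured for 26 of 29 under each inhibitor, against 46.0% and 44.1% of all genes, and after centring for 23 and 22, against 36.5% and 32.4%. Mcm3, a subunit of the replicative helicase, read 1217 and 1162 with DMSO, 976 and 989 with I-BET151, and 890 and 938 with JQ1 (log2 change -0.33 ± 0.05 SE in the mean of both, limma adjusted p = 0.0459, and 0.0756 with arrays centred). Ccna2, the S phase cyclin A2, read 1713 and 1587 in control buds and 1290 to 1381 on treated arrays, and missed the threshold (log2 change -0.29, adjusted p = 0.0722).

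**Figure D4:**
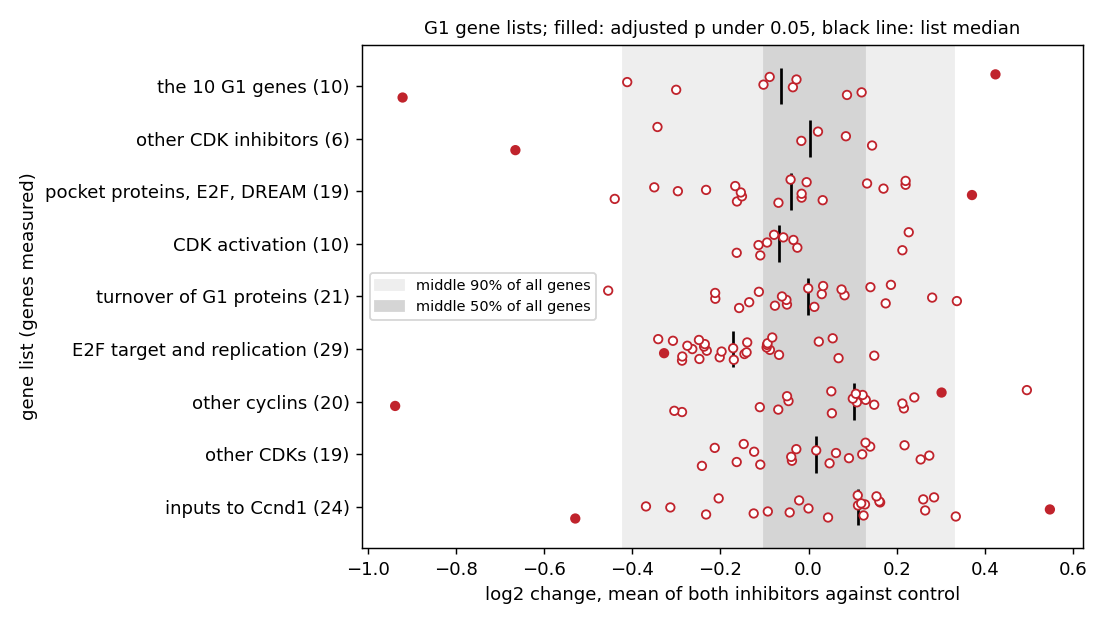
Log2 change in the mean of both inhibitors against control (horizontal axis) for the 10 G1 genes and 8 related lists (vertical axis, with the number of genes measured). Each point is a gene, filled where its adjusted p was under 0.05, black lines are list medians, and grey bands hold the middle 50% and 90% of all genes; the list of E2F targets has its median at -0.17, below the middle 50% band, and Ccnd1 and the cyclin gene Ccng1 lie farthest to the left.

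Of 20 other cyclin genes, 1 fell under each inhibitor, and in the mean of both 1 rose and 1 fell. Over all genes 0.87% and 2.67% fell, and in the mean of both 1.59% rose and 3.33% fell. At an unadjusted p under 0.05 there were 8 of the 20 in each comparison, against 18.9%, 21.6% and 22.7% of all genes. The gene that fell was Ccng1, which encodes cyclin G1, another target of p53. It read 1329 and 1213 with DMSO, 687 and 671 with I-BET151, and 679 and 616 with JQ1 (1.87-fold and 1.96-fold lower, limma adjusted p = 0.043 and 0.0171). Ccnt2, a cyclin of the elongation kinase P-TEFb, read 666 and 660 with DMSO, 801 and 764 with I-BET151, and 839 and 869 with JQ1, and rose in the mean of both (log2 change 0.30 ± 0.05 SE, adjusted p = 0.0491). None of 19 other CDK genes was called by limma under either inhibitor or in the mean of both, where 4, 7 and 5 had an unadjusted p under 0.05, against 18.9%, 21.6% and 22.7% of all genes. The smallest p in the mean of both were those of Cdk12 and Cdk18, with log2 changes of 0.27 and -0.21 in the mean of both and an unadjusted p of 0.013 and 0.0197.

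Inputs to Ccnd1 were represented by 24 measured genes (25 were listed) for transcription factors of growth factor, Wnt, Hippo and Hedgehog signalling. Of these, limma called 0 under I-BET151, while 1 rose and 1 fell under JQ1, and the same numbers did in the mean of both. Over all genes 1.13% were called under I-BET151, 1.13% rose and 2.67% fell under JQ1, and 1.59% and 3.33% in the mean of both. At an unadjusted p under 0.05 there were 8, 8 and 10 of the 24 in the same order, against 18.9%, 21.6% and 22.7% of all genes. Myc read 662 and 681 with DMSO, 429 and 468 with I-BET151, and 461 and 506 with JQ1, and fell in the mean of both (log2 change -0.53 ± 0.07 SE, limma adjusted p = 0.031). Egr1, an immediate early gene of the ERK pathway, read 182 and 170 in control buds, 262 and 243 under I-BET151, and 262 on both JQ1 arrays (1.49-fold higher under JQ1, adjusted p = 0.0305). Ets2, a factor activated by the same pathway, read 1274 and 1278 with DMSO, 1083 and 1115 with I-BET151, and 999 and 921 with JQ1, and fell under JQ1 (1.33-fold lower, adjusted p = 0.049, and 0.0760 with arrays centred). Like those of the members, all calls in these lists were lost when any 1 of the 6 arrays (of DMSO, I-BET151 or JQ1) was left out, since 0 of 24010 genes passed in each of those fits.

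The genes whose values were most like those of Ccnd1 were sought among 11275 protein-coding genes of at least median intensity, by the root mean square difference over 6 arrays of log2 values taken relative to the control mean. They were Prr15l (a difference of 0.043), the chloride channel family gene Clic6 (0.046), the stress kinase gene Map3k20 (0.062), the NADPH oxidase subunit gene Ncf1 (0.062) and Ccng1 (0.064). Prr15l read 215 and 216 with DMSO, 126 and 122 with I-BET151, and 108 and 112 with JQ1. Clic6 read 206 and 208, 119 and 110, and 110 and 100 in the same order. These genes were chosen for their likeness, so their falls support nothing further.

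**Figure D5:**
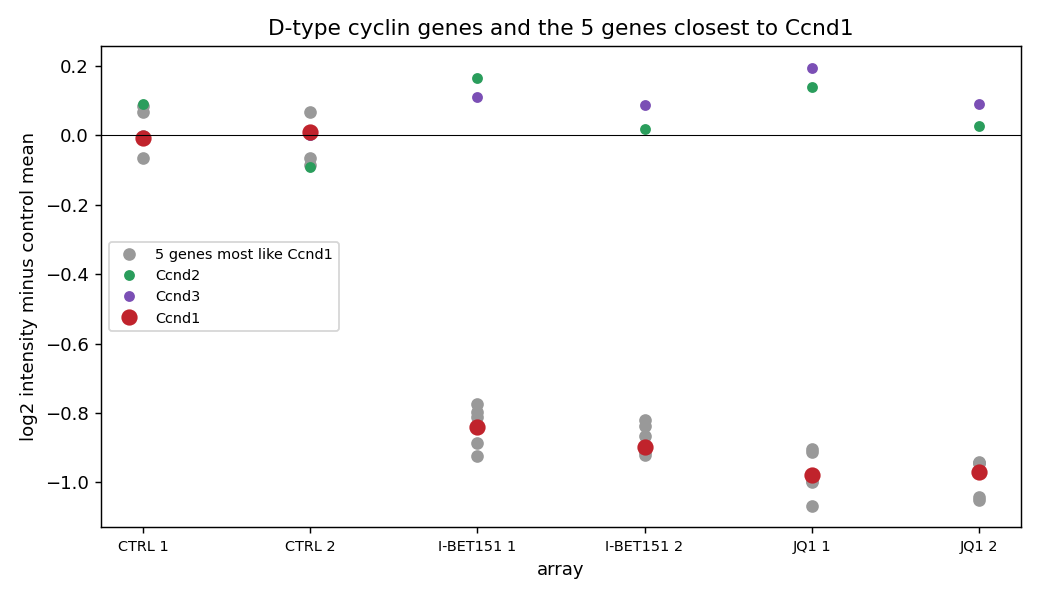
Log2 intensity minus the control mean (vertical axis) on each of the 6 arrays (horizontal axis) for the 3 D-type cyclin genes and the 5 genes closest to Ccnd1. Points are single arrays; Ccnd2 and Ccnd3 lie at or above 0 on the treated arrays, while Ccnd1 and the 5 chosen genes all lie well below 0 there.

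A bud holds several cell types, and in such bulk samples fewer cells of a type and less RNA per cell cannot be told apart. Progenitor markers of the pancreatic epithelium were present: Pdx1 read 228 to 252 and Sox9 1475 to 1531 in control buds. The summed intensity of 11 epithelial markers was 5951 to 5987 in control buds, 5881 to 5889 under I-BET151 and 5644 to 6407 under JQ1, with 1 of 11 called, Krt18, which fell under JQ1. Beside such counts, 1.13% of all genes were called under I-BET151, 3.8% under JQ1 and 4.92% in the mean of both. Sums of this kind are set mainly by the brightest genes of a list and do not measure the share of a cell type. The sum of 13 mesenchyme markers went from 9978 to 10279 in control buds to 8292 to 8506 and 8057 to 8095, with 2 and 3 genes called. That of 12 endothelial markers went from 6488 to 6658 to 4742 to 5104 and 4452 to 4564, with 2 and 5 called, and that of 9 neural crest markers from 2353 to 2467 to 1294 to 1422 and 1235 to 1338, with 2 and 3 called. All called markers of these last 3 types fell, and no marker of any type lay at the lowest value of the table, 5. Of 7 endocrine markers 1 was called, Neurod1, which rose under JQ1 and read 147 and 164 with DMSO, 271 and 231 with I-BET151, and 277 and 279 with JQ1. The summed endocrine level was 7334 to 7430, 7357 to 7831 and 7104 to 7592 in the 3 groups. Among 9 macrophage markers Fcgr1 fell under each inhibitor, others such as C1qb had positive changes that were not called (0.27 and 0.35), and the sum was 3439 to 3697, 3659 to 3789 and 3527 to 3768. The median log2 change of the 9 was -0.16 and -0.29, with 6 and 5 of them negative. Among 7 mesothelium markers Upk3b fell under JQ1, Wt1 and Bnc1 rose in the mean of both (adjusted p = 0.0436 and 0.0398), and the sum was 2595 to 2678, 2790 to 2845 and 2473 to 2649. None of 7 erythroid and 10 liver markers was called by limma, and the liver sum varied widely between replicates, at 5223 to 5508, 3184 to 4825 and 3205 to 5225. The part of these shifts in the changes of Ccnd1, Rb1 and the other cell cycle genes was not tested.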

How the data were processed

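RNA of 6 pools of buds was hybridised to Affymetrix whole-transcript arrays, per the labels' protocols. The authors deposited linear intensities made with RMA, per the submitters' processing notes; the values are whole numbers from 5 upward. RMA as a method corrects background, sets the arrays to a common distribution and sums up probes, so differences in total signal between arrays are removed. The genome build, the RMA version and how probes were combined per gene are not given in the sources used here. Arrays have no read depth: 2 arrays per group limit the precision.

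Of 24972 rows, 24014 had a gene symbol in the platform annotation, and 958 were not listed there and stay unnamed here. Of the named rows, 23921 took a RefSeq (GRCm38.p6) name by Entrez ID; of rows sharing a symbol the brightest was kept, leaving 24010. Log2(intensity), with no pseudocount or filter, was fitted with limma 3.58.1 in R 4.3.3 (lmFit with a mean per group, eBayes) on all 6 arrays, with 3 residual and 1.76 prior degrees of freedom, and p-values were adjusted by Benjamini-Hochberg over all genes. Values are arrays, or log2 changes ± SE. Arrays of a group correlated at 0.995 to 0.996 and control against treated arrays at 0.990 to 0.993. The script was tested on simulated data. The members, the 8 lists and the cell type markers were chosen with earlier results of these data known. Genes were named if they were members, if called in a list (otherwise the smallest p, up to 2 per list), or if among the 5 closest to Ccnd1. Alternatives were centring, filters on dim genes, a pseudocount, another variance prior, fits of 2 groups, a replicate block and leaving out arrays.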

Additional observations from a re-analysis of the deposited data

How the results depend on the processing

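The log2 change of Ccnd1 stayed between -0.90 and -0.82 under I-BET151 and between -0.98 and -0.91 under JQ1 in 19 alternatives each, and passed in 11 of 19 for both. All alternatives kept the sign of Ccnd1, Rb1, Ccne1, Cdk6 and Cdk4 against control, and none of the 10 genes reversed a call. Without a filter, leaving out 1 array of the group not compared equalled the fit of only the groups compared. The alternatives were therefore not all distinct. Genes called under I-BET151, JQ1 and the mean of both numbered 272, 912 and 1181. Centring gave 533, 1391 and 1738. Leaving out the dimmest 25% gave 798, 1733 and 2045, and leaving out all below the median gave 1422, 2362 and 2675. Adding 16 before the log2 gave 661, 1615 and 1963, and the intensity-dependent robust prior 1806, 2617 and 3006, with 6 between the inhibitors. Fits of only the groups compared gave 0 under I-BET151 and 0 under JQ1, with fewer residual degrees of freedom; the mean of both could not be fitted so. Members called were 1, 1 and 2. They became 2, 2 and 2 with centring, with the 25% filter and with 16 added (Ccnd1 and Rb1), 2, 3 and 3 with the median filter, 3, 3 and 4 with the other prior (Ccne1 or Cdk6 added), and 0 and 0 in fits of only the groups compared.

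Leaving out 1 array, with the lone array assumed to vary like the other groups, gave 0 genes and 0 members in every contrast. With genes below the median also left out it gave, without CTRL 1, CTRL 2, I-BET151 1, I-BET151 2, JQ1 1 and JQ1 2 in turn, 409, 396, 377, 753, 1042 and 1042 genes under I-BET151. The same fits gave 1114, 1023, 2205, 2205, 951 and 1023 under JQ1 and 1084, 1001, 1918, 2316, 1752 and 1849 in the mean of both, with 1 to 3 members in each, always Ccnd1. The cause of these differences was not tested.

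The replicate numbers are shared between groups, and deviations of same-numbered arrays correlated at -0.04 to -0.02. With 2 arrays per group this can neither show nor exclude that the numbers pair the arrays. With the replicate number as a block, 0 genes and 0 members were called under I-BET151, JQ1 and the mean of both, and the limma adjusted p of Ccnd1 was 0.130, 0.0612 and 0.0568.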
